A study of Rattus norvegicus with 42 samples.

Results

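Antioxidant enzymes remove the reactive oxygen species that cells make as they respire or that phagocytes release on purpose, and 10 genes of this kind were followed in rat whole blood: the superoxide dismutases Sod1 and Sod2, catalase (Cat), glutathione peroxidase Gpx1, the peroxiredoxins Prdx1, Prdx2, Prdx5 and Prdx6, and Gclc and Gsr, which make and recycle glutathione. They were chosen by name, and each gene was read from the probe sets that carry its symbol in the annotation of the array. Of the 10 genes, 9 had at least 1 probe set of their own, of 14217 genes named in this way on the array. The only probe set naming Prdx1 also names Prdx1l1, so it could not be assigned to either gene. Its values are given apart, and every count below is over 9 genes.

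The study asked what tissue plasminogen activator (tPA), the clot-dissolving drug given for ischemic stroke, does to gene expression in blood, and whether that depends on reopening of the blocked artery. Stroke was produced by middle cerebral artery occlusion (MCAO) with a suture passed up the carotid artery under isoflurane. All 42 rats were male Sprague-Dawley animals, 2.4 months old on average and weighing 280 to 350 g, and blood was drawn by cardiac puncture at 24 h. There were 7 groups of 6 rats. Naive rats had no procedure, and anesthesia rats neither MCAO nor tPA. The tPA without MCAO group received tPA at 3 h. Reperfused-MCAO rats had 2 h of occlusion and then reperfusion, permanent-MCAO rats had the artery blocked for all 24 h, and a group of each kind also received tPA at 3 h. The dose was 3.3 mg/kg throughout. Isoflurane was given for the blood draw, with no group named as an exception, and the sources used here do not state whether the tPA without MCAO rats were also anesthetised at the start or when tPA was given.

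A superoxide dismutase turns superoxide into hydrogen peroxide, Sod1 mainly in the cytosol and Sod2 in the matrix of mitochondria. Catalase, glutathione peroxidase and peroxiredoxins then break the peroxide down, the last groups at the cost of reduced glutathione or thioredoxin. Red cells carry oxygen, have no mitochondria when mature, and rely on catalase, Prdx2 and Gpx1, while neutrophils and monocytes produce superoxide when they attack microbes. Whole blood mixes all of these cells, so that fewer cells of a type and less RNA per cell cannot be told apart in any value below. Values are log2 expression on an array, where a difference of 1 is a doubling. A level can be compared between rats for 1 probe set, but not between probe sets, which differ in how strongly they bind.

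The transcription factor NRF2 controls many antioxidant genes through a promoter sequence called the antioxidant response element, and GATA1 drives red cell genes through GATA motifs. RefSeq promoters of the GRCr8 assembly, 250 bases before and 50 after the transcript start used there, were held for 8 of the 10 genes. Prdx6 and Gsr were not in the table. The element's core, TGACNNNGC on either strand, was found in Sod2, Prdx1 and Prdx5, against 12.1% of 33469 promoters searched. Sod1, Cat, Gpx1, Prdx2 and Gclc held no match. After reperfused-MCAO Gclc was lower, and so, without passing, was the shared probe set of Prdx1. The motif AGATAA on either strand was found in none of the 8, against 11.6% of all promoters, which says only that these letters are not in these windows. Likewise a match to the core shows only that the letters are there, and whether NRF2 acts through it was not tested. The promoters below belong to the genes that were higher after reperfused-MCAO (Sod2 at chr1:50050119-50050418 and Prdx5 at chr1:213531978-213532277, both on the minus strand) and to 2 of the 3 genes that varied with red cell markers (Prdx2 at chr19:40090933-40091232 and Cat at chr3:110329477-110329776, both minus). Gpx1, the remaining gene of the 3, is not printed, and the call of Cat was lost without 1 rat, as given below. The promoters are written 5′ to 3′ along the gene, with a match to TGACNNNGC in capitals. Both matches lie on the strand opposite to the gene, so the capitals show the reverse complement.
Sod2: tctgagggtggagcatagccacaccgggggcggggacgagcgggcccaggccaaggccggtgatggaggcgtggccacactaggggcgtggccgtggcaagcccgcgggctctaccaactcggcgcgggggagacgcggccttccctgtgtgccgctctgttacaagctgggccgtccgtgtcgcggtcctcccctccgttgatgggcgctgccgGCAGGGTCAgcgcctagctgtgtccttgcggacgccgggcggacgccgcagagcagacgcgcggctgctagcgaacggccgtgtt
Prdx5: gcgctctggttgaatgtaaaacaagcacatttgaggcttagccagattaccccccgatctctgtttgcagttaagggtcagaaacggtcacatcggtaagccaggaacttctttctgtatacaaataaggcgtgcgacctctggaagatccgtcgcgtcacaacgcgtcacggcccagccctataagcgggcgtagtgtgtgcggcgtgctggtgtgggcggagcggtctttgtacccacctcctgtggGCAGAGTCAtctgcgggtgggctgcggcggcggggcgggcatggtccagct
Prdx2: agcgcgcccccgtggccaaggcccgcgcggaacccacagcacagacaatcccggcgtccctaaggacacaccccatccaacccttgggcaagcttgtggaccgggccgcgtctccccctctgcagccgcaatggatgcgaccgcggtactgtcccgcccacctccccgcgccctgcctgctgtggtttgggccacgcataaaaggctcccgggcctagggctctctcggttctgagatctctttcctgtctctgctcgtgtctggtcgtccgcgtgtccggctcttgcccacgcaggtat
Cat: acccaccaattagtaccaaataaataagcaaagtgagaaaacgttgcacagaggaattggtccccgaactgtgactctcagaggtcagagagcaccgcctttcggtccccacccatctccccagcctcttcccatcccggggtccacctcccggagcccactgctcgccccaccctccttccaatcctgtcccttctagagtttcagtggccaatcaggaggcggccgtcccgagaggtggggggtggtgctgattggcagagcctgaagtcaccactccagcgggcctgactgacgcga
The match in Sod2 covers positions -35 to -27 from the start and that in Prdx5 positions -1 to 7. The Prdx5 gene itself spans chr1:213529042-213532787, so its whole window lies inside the gene. Gclc begins at chr8:87510251, so most of its window (chr8:87510226-87510525) also lies inside the gene. The match in Prdx5 and the lack of one in Gclc therefore do not describe the sequence upstream of these genes. Prdx2 and Cat hold no match to either motif.

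Each gene was read from 1 probe set, whose mean is given for reference. Over all 42 rats, the mean log2 level of Prdx2 (probe set 1367578_at) was 14.3, of Gpx1 (1367576_at) 14.1 and of Cat (1367995_at) 13.3. Sod1 (1367641_at) averaged 10.9, Prdx5 (1367677_at) 10.03 and Sod2 (1370172_at) 9.97. Prdx6 (1367969_at), a peroxiredoxin that also cleaves phospholipids, averaged 6.40, and Gclc (1372523_at), which carries out the first and limiting step of glutathione synthesis, 5.24. Gsr (1369061_at), which returns oxidised glutathione to its reduced form, averaged 2.78, below the level of log2 4 under which a probe set is called dim here. A further Gclc probe set (1370688_at) was also dim, at 2.30, and passed the test in no comparison. The shared probe set of Prdx1 and Prdx1l1 (1367613_at) averaged 10.97.

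**Figure D1:**
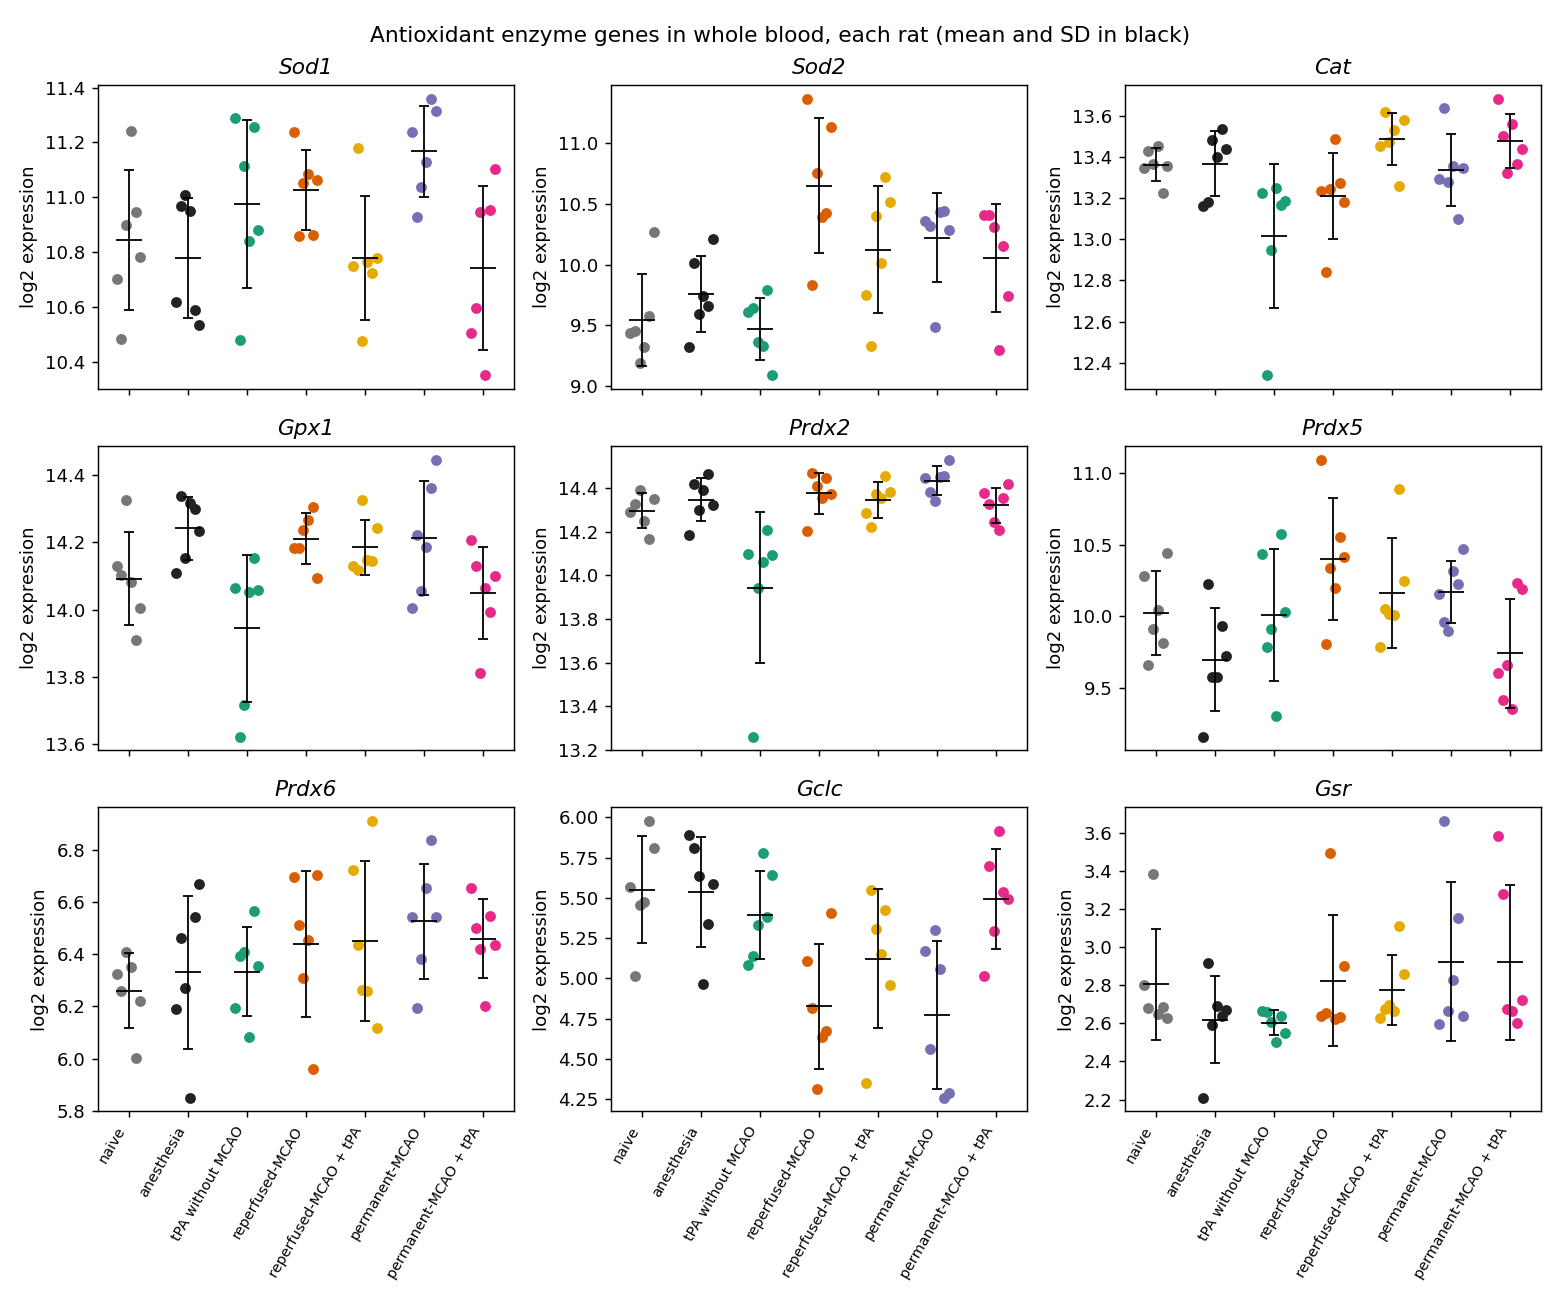
Each panel shows 1 gene and each point 1 rat, as log2 expression, with the 7 groups of 6 rats along the axis and the group mean and SD in black (each vertical axis has its own range and does not start at 0). The highest Sod2 and Prdx5 means are in reperfused-MCAO, the lowest Gclc means in both untreated MCAO groups, and 1 rat given tPA without MCAO lies apart at the bottom of Cat and Prdx2.

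On 1 array the values stood apart before any comparison was made. Rat 2 of the tPA without MCAO group had a mean log2 of 9.23 over 7 red cell marker genes, while the other 5 rats of its group reached up to 11.7 and the anesthesia group ran from 11.997 to 12.6. Its hybridization controls, RNAs added to every sample before it was put on the array, averaged 9.72, against 11.8 to 12.4 in the anesthesia group. Some results of the 9 genes are given with and without this rat, and those of marker lists and further genes with it only. Its array median was the highest, 3.26, while those of the other rats lay between 3.05 and 3.14.

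After reperfused-MCAO, Sod2 and Prdx5, both found in mitochondria, were higher than in anesthesia rats, and Gclc, which makes glutathione, was lower. Of the 9 genes, 3 passed the thresholds of p at most 0.01 and fold at least 1.2, 2 of them higher (Sod2 and Prdx5) and 1 lower (Gclc), while 6% of all 31042 probe sets passed. None of the 9 passed after Benjamini-Hochberg adjustment over all probe sets in limma, against 2.11% of probe sets, and 4 had an unadjusted p of at most 0.05. The median log2 difference was 0.11 over the 9 genes and -0.02 over all probe sets.

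Sod2, the manganese superoxide dismutase of mitochondria, ran from 9.32 through a median of 9.70 to 10.2 in anesthesia rats and from 9.83 through 10.6 to 11.4 in reperfused-MCAO rats. Most reperfused rats lay above the highest anesthesia rat, but the groups overlapped. The difference was 0.89 ± 0.251 (SE), or 1.86-fold (adjusted p = 0.105 in limma, exact permutation p = 0.00866, two-sided). The call was lost without rat 1, 3 or 5 of anesthesia or rat 3 or 6 of reperfused-MCAO, where the difference stayed between 0.80 and 0.88 and p reached 0.0115.

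Prdx5, a peroxiredoxin found in mitochondria, peroxisomes and cytosol, ran from 9.16 through 9.65 to 10.2 in anesthesia and from 9.81 through 10.4 to 11.1 in reperfused-MCAO. The groups overlapped between the lowest reperfused rats and the highest anesthesia rats. The difference was 0.70 ± 0.217 (SE), or 1.63-fold (adjusted p = 0.143 in limma, exact permutation p = 0.013). The anesthesia mean, 9.70, was the lowest of the 7 groups, against 10.03 in naive rats and 10.4 in reperfused-MCAO rats. Leaving out any of 9 rats ended the call (rats 1, 3, 4 and 6 of anesthesia and every reperfused-MCAO rat except rat 2), with differences of 0.56 to 0.74 and p up to 0.0186.

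Gclc, the catalytic subunit of glutamate-cysteine ligase, ran from 4.96 through 5.61 to 5.89 in anesthesia and from 4.31 through 4.74 to 5.41 in reperfused-MCAO. It was lower in the stroke group, with overlap. The difference was -0.71 ± 0.202 (SE), or 1.64-fold (adjusted p = 0.108 in limma, exact permutation p = 0.0108), and it lost its call without rat 1, 2, 3 or 6 of anesthesia or rat 3, 4 or 5 of reperfused-MCAO (-0.70 to -0.61, p up to 0.0121). The remaining members did not pass. Sod1 differed by 0.25 ± 0.103 and Gsr by 0.21 ± 0.163, while Cat, Gpx1, Prdx2 and Prdx6 differed by -0.16 to 0.11. The shared Prdx1 and Prdx1l1 probe set was lower by 0.81 ± 0.281 without passing (adjusted p = 0.192 in limma).

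Some blood cell markers passed in the same comparison, against 6% of all probe sets. Of 9 neutrophil markers measured 3 were called higher and none lower, of 8 monocyte markers 2 higher, and of 7 NK and cytotoxic cell markers 4 higher, while 1 of 7 red cell markers was called lower. None of 9 T cell, 4 B cell and 6 platelet markers was called. The mean neutrophil marker level ranged from 7.49 to 9.002 over anesthesia rats and from 7.93 to 10.5 over reperfused-MCAO rats, and the monocyte level from 5.48 to 6.09 and from 6.02 to 6.91. The part of these markers in the Sod2 and Prdx5 differences was not tested. With the hybridization control level as a covariate, Sod2 and Prdx5 differed by 0.90 and 0.71 and lost their calls (adjusted p = 0.203 and 0.242 in limma), while Gclc differed by -0.94 (adjusted p = 0.07) and kept its call. Gsr, which is dim, was called higher with the covariate, at 0.50 (adjusted p = 0.0645 in limma), against 0.21 without it.

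After permanent-MCAO, 2 of the 9 genes passed, Sod1 higher and Gclc lower, against 2.78% of all probe sets. None passed after adjustment in limma, against 0.145% of probe sets, and 4 had an unadjusted p of at most 0.05. The median log2 difference was 0.20 over the 9 genes and 0.00 over all probe sets. This comparison and the preceding one share the 6 anesthesia rats.

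Sod1, the copper-zinc superoxide dismutase, ran from 10.5 through 10.8 to 11.01 in anesthesia and from 10.9 through 11.2 to 11.4 in permanent-MCAO. Only the lowest permanent-MCAO and the highest anesthesia values overlapped. The difference was 0.39 ± 0.108 (SE), or 1.31-fold (adjusted p = 0.236 in limma, exact permutation p = 0.0108). It lost its call without rat 1 or 5 of anesthesia or rat 5 or 6 of permanent-MCAO, where it was 0.35 to 0.36 with p up to 0.0104.

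Gclc ran from 4.26 through 4.81 to 5.30 in permanent-MCAO, with the highest of these rats inside the anesthesia range. The difference was -0.76 ± 0.224 (SE), or 1.70-fold (adjusted p = 0.283 in limma, exact permutation p = 0.013). Without rat 1, 2, 3 or 6 of anesthesia or rat 2, 5 or 6 of permanent-MCAO it was -0.75 to -0.66 and not called, with p up to 0.0144.

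Sod2 and Prdx5 differed from anesthesia by 0.46 ± 0.189 and 0.47 ± 0.164 after permanent-MCAO and did not pass. Each was called when a single rat was left out, Sod2 without rat 3 of permanent-MCAO (0.61) and Prdx5 without rat 2 of anesthesia (0.58), and both were called with the hybridization control level as a covariate (0.53 and 0.52). Of 9 neutrophil markers 3 were called higher, and of 8 monocyte markers 1, against 2.78% of all probe sets. No marker of the other blood cell lists was called. The neutrophil level ranged from 7.97 to 9.66 and the monocyte level from 6.10 to 6.56 over permanent-MCAO rats. Their part in these values was not tested. Prdx6 differed by 0.20 ± 0.144 and Gsr by 0.31 ± 0.185, while Cat, Gpx1 and Prdx2 differed by -0.03 to 0.09, none of them passing. The shared Prdx1 and Prdx1l1 probe set differed by -0.49 ± 0.285 (adjusted p = 0.829 in limma).

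Reperfused-MCAO and permanent-MCAO were also compared directly. None of the 9 genes passed, with 0.709% of probe sets called, and none reached an unadjusted p of 0.05 in limma. Sod2 differed by 0.43 ± 0.261, Prdx5 by 0.23 ± 0.186, Sod1 by -0.14 ± 0.0871 and Gclc by 0.05 ± 0.235 (reperfused minus permanent). Cat, Prdx2, Prdx6 and Gsr differed by -0.13 to -0.06, Gpx1 by -0.0019, and the shared Prdx1 and Prdx1l1 probe set by -0.32 ± 0.163. That Sod2 passed after one kind of MCAO and Sod1 after the other therefore does not show that the kinds differ.

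**Figure D2:**
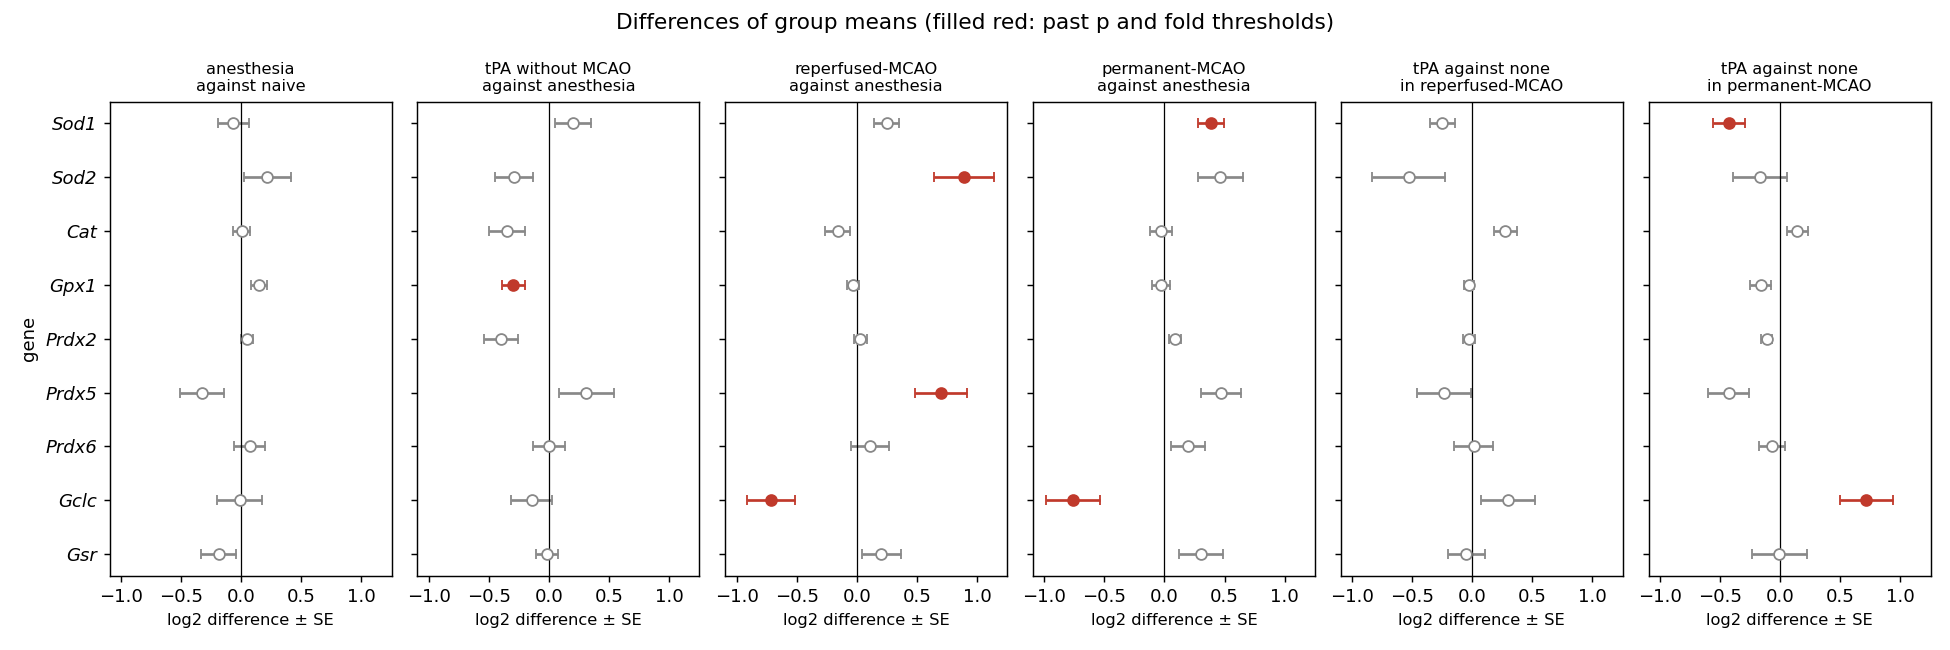
Each panel is a comparison of 2 groups of 6 rats, with the log2 difference of the means along the axis, SE bars from limma and a filled red point for a gene past the thresholds of p at most 0.01 and fold at least 1.2. Gclc lies at -0.71 and -0.76 in both untreated MCAO comparisons and at 0.72 for tPA in permanent-MCAO. The last 2 values share the untreated permanent-MCAO rats, which enter them with opposite sign, so they are not independent.

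Averaged over rats with and without tPA in a fit of all 42 rats, stroke gave 2 calls among the 9 genes at p at most 0.05 and fold at least 1.2, against 15.4% of probe sets. Sod2 rose by 0.65 ± 0.149 (adjusted p = 0.00561 in limma) and Gclc fell by 0.41 (SE 0.130, adjusted p = 0.0436). Prdx2 passed the adjusted p (0.22 ± 0.0522, adjusted p = 0.0064) but not the fold threshold, so that 3 genes passed after adjustment against 7.86% of probe sets. The median log2 difference was 0.18 over the 9 genes and 0.00 over all probe sets, with 8 of 9 values above 0. Cat (0.18 ± 0.0670), Gsr (0.25 ± 0.104), Prdx6, Gpx1 and Sod1 (0.05 to 0.14) and the shared Prdx1 and Prdx1l1 probe set (-0.23 ± 0.143) did not pass. Prdx5 was at 0.27 ± 0.133 and uncalled, but was called on leaving out any of 11 rats (2 and 5 of anesthesia, 2 of reperfused-MCAO, 2 and 3 of permanent-MCAO, 1, 2, 3 and 4 of permanent-MCAO + tPA, 1 and 5 of tPA without MCAO), with values from 0.28 to 0.32, and Gsr was called on leaving out rat 2 of anesthesia (0.28). When the tPA without MCAO rats were coded as not anesthetised, Sod2 was at 0.54, Prdx5 at 0.43, Gsr at 0.34 and Gclc at -0.40, all 4 called. With the hybridization control level as a covariate Prdx2 was at 0.10 (adjusted p = 0.0781 in limma) and Cat at 0.08. Sod2 (0.60) and Gclc (-0.32) were then called. Without rat 2 of tPA without MCAO, Prdx2 was at 0.16 (adjusted p = 0.00281 in limma) and Cat at 0.12. Both had their lowest mean in that group, 13.9 and 13.02. In untreated rats Prdx2 differed from anesthesia by 0.03 and 0.09 and Cat by -0.16 and -0.03 after reperfused-MCAO and permanent-MCAO. Every blood cell list held markers called with stroke in the main fit of all 42 rats, where 15.4% of all probe sets were called. Beside that share, 1 or 2 calls in a short list say little. Of NK and cytotoxic cell markers 6 of 7 were called higher (median 0.73), of platelet markers 5 of 6 (0.66), of red cell markers 3 of 7 (0.35) and of monocyte markers 2 of 8 (0.12). Of neutrophil markers 5 of 9 were called higher and 1 lower (0.47), of T cell markers 8 of 9 lower (-0.49) and of B cell markers 1 of 4 lower (-0.36). Their part was not tested.

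In rats without stroke, 1 of the 9 genes passed between tPA and anesthesia, while 13.7% of all probe sets passed. The gene was Gpx1, which was lower with tPA. None passed after adjustment in limma, against 12.5% of probe sets, and 3 had an unadjusted p of at most 0.05. The median log2 difference was -0.14 over the 9 genes and -0.01 over all probe sets.

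Gpx1, the selenoenzyme that spends glutathione on hydrogen peroxide, ran from 14.1 through 14.3 to 14.3 in anesthesia and from 13.6 through 14.1 to 14.2 with tPA. The groups overlapped at the upper end of the tPA rats. The difference was -0.30 ± 0.0931 (SE), or 1.23-fold (adjusted p = 0.0602 in limma, exact permutation p = 0.00649). It lost its call without any anesthesia rat except rat 1, or without rat 2 or 3 of the tPA group, with values of -0.31 to -0.23 and p up to 0.0204.

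Prdx2, an abundant red cell peroxiredoxin, ran from 14.2 through 14.4 to 14.5 in anesthesia and from 13.3 through 14.1 to 14.2 with tPA, and Cat from 13.2 through 13.4 to 13.5 and from 12.3 through 13.2 to 13.2. In both genes the lowest value was that of rat 2 of the tPA group. Prdx2 differed by -0.40 ± 0.141 (adjusted p = 0.0821 in limma, exact permutation p = 0.00433) and Cat by -0.35 ± 0.151 (adjusted p = 0.141 in limma, exact permutation p = 0.0303), and neither passed. Without rat 2 of the tPA group, Gpx1 differed by -0.23 and was not called, Prdx2 by -0.27 and was called (adjusted p = 0.0258 in limma), and Cat by -0.21 and was not called.

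Red cell markers and the hybridization controls were lower in the same rats. Of 7 red cell markers measured 4 were called lower, with a median difference of -1.47, and 8 of 9 T cell markers were called higher, with a median of 0.78. Of 6 platelet markers 4 were called lower (median -0.75), of 7 NK and cytotoxic cell markers 2 lower (-0.48) and of 9 neutrophil markers 1 higher (0.07), with no call among monocyte and B cell markers. The red cell level ranged from 11.997 to 12.6 over anesthesia rats and from 9.23 to 11.7 over tPA rats, without overlap, and the hybridization control level from 11.8 to 12.4 and from 9.72 to 11.7. With the latter as a covariate the differences were -0.02 in Gpx1, 0.07 in Prdx2 and 0.13 in Cat, and none was called. The design cannot tell a change in red cell RNA from one in the hybridization of these arrays, since both levels were lower in that group. Of the other members, Prdx5 differed by 0.31 ± 0.229, Sod1 by 0.20 ± 0.148 Sod2 by -0.29 ± 0.160, Gclc by -0.14 ± 0.172, Gsr by -0.02 and Prdx6 by 0.0030, and none passed. The shared Prdx1 and Prdx1l1 probe set differed by -0.65 ± 0.282 (adjusted p = 0.144 in limma).

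In permanent-MCAO, tPA was associated with a lower level of Sod1 and a higher level of Gclc. These 2 of the 9 genes passed, against 0.322% of probe sets. After adjustment in limma no probe set passed, and 4 of the 9 genes had an unadjusted p of at most 0.05. The median log2 difference was -0.11 over the 9 genes and 0.00 over all probe sets. This comparison and that of permanent-MCAO with anesthesia share the untreated permanent-MCAO rats, which enter them with opposite sign. For Sod1 and Gclc the calls in the 2 comparisons are therefore not independent.

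Sod1 ran from 10.9 through 11.2 to 11.4 in permanent-MCAO and from 10.3 through 10.8 to 11.1 in permanent-MCAO + tPA. The highest tPA rats overlapped with the lowest untreated rats. The difference was -0.43 ± 0.135 (SE), or 1.34-fold (adjusted p = 1 in limma, exact permutation p = 0.0173), and it was not called without any untreated rat except rat 2, or without rat 1, 2 or 4 of the tPA group (-0.45 to -0.35, p up to 0.0218).

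Gclc ran from 4.26 through 4.81 to 5.30 without tPA and from 5.02 through 5.52 to 5.91 with it. The lowest tPA rats lay inside the untreated range, and the mean with tPA, 5.49, was close to the 5.54 of anesthesia rats. The difference was 0.72 ± 0.218 (SE), or 1.65-fold (adjusted p = 1 in limma, exact permutation p = 0.0152). It was not called without rat 2, 5 or 6 of either group or rat 4 of the tPA group (0.62 to 0.72, p up to 0.0172). With the hybridization control level as a covariate neither gene was called (Sod1 -0.41 and Gclc 0.57, adjusted p = 0.981 for both in limma). None of the markers of any blood cell list was called in this comparison. Prdx5 differed by -0.43 ± 0.171 and Prdx2 by -0.11 ± 0.0433 without passing, and Prdx5 was called without rat 5 of the tPA group (-0.52). Sod2 (-0.17 ± 0.226), Gpx1 (-0.16 ± 0.0863), Cat (0.14 ± 0.0869), Prdx6 (-0.07), Gsr (-0.0042) and the shared Prdx1 and Prdx1l1 probe set (0.08 ± 0.256) did not pass either.

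In reperfused-MCAO none of the 9 genes passed with tPA, where 0.722% of probe sets did, and none passed after adjustment in limma. Cat and Sod1 had an unadjusted p of at most 0.05. Cat ran from 12.8 through 13.2 to 13.5 without tPA and from 13.3 through 13.5 to 13.6 with it, a difference of 0.28 ± 0.0964 (adjusted p = 0.542 in limma, exact permutation p = 0.0216), and passed without rat 4 of reperfused-MCAO (0.33) or rat 5 of reperfused-MCAO + tPA (0.32). Sod1 differed by -0.25 ± 0.106 and passed without rat 2 of the tPA group (-0.33). Sod2 differed by -0.53 ± 0.301, Gclc by 0.30 ± 0.227 and Prdx5 by -0.23 ± 0.224. Gpx1, Prdx2, Prdx6 and Gsr differed by -0.05 to 0.01, and the shared Prdx1 and Prdx1l1 probe set by 0.33 ± 0.163.

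The tPA effects in reperfused-MCAO and permanent-MCAO did not differ past the thresholds for any of the 9 genes, with 0.296% of probe sets called, and no gene had an unadjusted p of at most 0.05 in limma. The difference between the effects (reperfused minus permanent) was -0.42 ± 0.321 for Gclc, 0.18 ± 0.174 for Sod1, -0.36 ± 0.383 for Sod2 and 0.13 ± 0.132 for Cat. It was -0.05 to 0.19 for Gpx1, Prdx2, Prdx5, Prdx6 and Gsr and 0.24 ± 0.309 for the shared Prdx1 and Prdx1l1 probe set. The calls of Sod1 and Gclc in permanent-MCAO are thus not shown to be particular to it.

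Averaged over rats without and with stroke in the fit of all 42 rats, tPA gave 1 call, against 12% of probe sets. Sod2 was at -0.32 ± 0.149 (adjusted p = 0.236 in limma), and it lost that call without any 1 of 12 rats (2 and 6 of anesthesia, 1, 3 and 6 of reperfused-MCAO, 1 and 2 of reperfused-MCAO + tPA, 4 and 6 of permanent-MCAO + tPA, 3, 4 and 6 of tPA without MCAO), at -0.31 to -0.27. Prdx2 and Gpx1 passed the adjusted p but not the fold threshold, at -0.24 ± 0.0522 (adjusted p = 0.0118 in limma) and -0.20 ± 0.0492 (adjusted p = 0.0196 in limma), against 4.36% of probe sets. Prdx2 also passed the fold threshold without rat 5 of tPA without MCAO (-0.26). Sod1, Cat, Prdx5, Prdx6 and Gsr were at -0.07 to -0.01, Gclc at 0.18 ± 0.130 and the shared Prdx1 and Prdx1l1 probe set at -0.22 ± 0.143, none called. In the same fit 6 of 7 red cell markers, 3 of 6 platelet markers and 1 of 7 NK and cytotoxic cell markers were called lower, and 8 of 9 T cell markers and 1 of 8 monocyte markers higher. With the hybridization control level as a covariate Prdx2 was at -0.05, Gpx1 at -0.06 and Sod2 at -0.25, none called. Without rat 2 of tPA without MCAO and with no covariate, Prdx2 was at -0.17 (adjusted p = 0.00968 in limma). Gpx1 was then at -0.16 and no longer passed the adjusted p (0.0644 in limma). When the 4 MCAO groups alone were fitted, Sod1 (-0.34), Prdx5 (-0.33) and Gclc (0.51) were called and Sod2 (-0.35) was not. None of these passed after adjustment (adjusted p = 0.855 for each in limma).

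The effect of tPA differed between rats with and without stroke for 5 of the 9 genes, where 21% of probe sets were called. The interaction, the tPA effect with MCAO minus that without, was positive for Cat (0.56 ± 0.134, adjusted p = 0.00952 in limma), Prdx2 (0.33 ± 0.104, adjusted p = 0.0395) and Gclc (0.65 ± 0.261, adjusted p = 0.096). It was negative for Sod1 (-0.54 ± 0.164, adjusted p = 0.035 in limma) and Prdx5 (-0.64 ± 0.267, adjusted p = 0.109). After adjustment 3 genes passed, Cat, Prdx2 and Sod1, against 9.47% of probe sets. The median was -0.01 over the 9 genes and 0.01 over all probe sets. Gpx1 was at 0.20 ± 0.0984 and Sod2, Prdx6 and Gsr at -0.06 to -0.01, none called. The shared Prdx1 and Prdx1l1 probe set was called, at 0.85 ± 0.286 (adjusted p = 0.0509 in limma).

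For Cat the interaction rests on a lower mean with tPA in rats without stroke, 13.02 against 13.37, and on higher means with tPA in both kinds of MCAO, 13.5 against 13.2 and 13.5 against 13.3. For Prdx2 it rests on rats without stroke, 13.9 against 14.3, since the means in all MCAO groups lay between 14.3 and 14.4. Without rat 2 of tPA without MCAO, Prdx2 was at 0.19 (adjusted p = 0.0623 in limma) and below the fold threshold, and Cat was at 0.42 and still called. With the hybridization control level as a covariate Prdx2 was at -0.03 and Cat at 0.24, neither called, while Sod1 was at -0.71, Prdx5 at -0.74 and Gclc at 0.93, all called. Prdx5 lost its call without rat 1 of anesthesia or rat 1 or 5 of tPA without MCAO (-0.55 to -0.53), and with that group coded as not anesthetised (-0.31). Of red cell markers 6 of 7 were called higher with the interaction (median 1.45), where 21% of all probe sets were called. Of platelet markers 3 of 6 and of NK and cytotoxic cell markers 2 of 7 were called higher, and no B cell marker was called. Of T cell markers 7 of 9, of neutrophil markers 3 of 9 and of monocyte markers 1 of 8 were called lower. Their part was not tested.

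Anesthesia against naive gave no call among the 9 genes, with 0.821% of probe sets called, and none after adjustment in limma, where 0.00322% of probe sets passed. Gpx1 had an unadjusted p of at most 0.05 (0.15 ± 0.0663), Prdx5 differed by -0.33 ± 0.182, Sod2 by 0.22 ± 0.194 and Gsr by -0.19 ± 0.145. Sod1, Cat, Prdx2, Prdx6 and Gclc differed by -0.07 to 0.07, and the shared Prdx1 and Prdx1l1 probe set by 0.30 ± 0.275. With the hybridization control level as a covariate Gsr was called lower, at -0.40 (adjusted p = 1 in limma). Prdx6 passed in none of the comparisons between groups, and Gsr in none as fitted here, although another scaling or coding also brought a call in the stroke effect (0.27 to 0.34). Prdx6 group means lay between 6.26 and 6.53 with a pooled SD of 0.233, and dim Gsr between 2.60 and 2.92 with a pooled SD of 0.301, so that neighbouring groups in their order did not differ beyond their spread.

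Rats of the same group also varied, and this variation is described by the slope of each gene on the mean level of a blood cell marker list, with a mean for each of the 7 groups in the fit. The red cell level went with 3 of the 9 genes at adjusted p at most 0.05, against 20.1% of probe sets. Per log2 of red cell level, Prdx2 was higher by 0.28 (adjusted p = 6.33e-08 in limma), Gpx1 by 0.22 (adjusted p = 1.92e-05) and Cat by 0.28 (adjusted p = 0.000294). The first-listed red cell markers measured were Slc4a1, the anion exchanger of the red cell membrane, and Alas2, the first enzyme of heme synthesis in red cells. Leaving out rat 2 of tPA without MCAO ended the call of Cat (0.17, adjusted p = 0.0663 in limma) and added Gclc (-0.51) and Gsr (0.55). Prdx2 was then at 0.16 and Gpx1 at 0.27, both still called.

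The hybridization control level, which no cell supplies, gave calls for the same 3 genes, against 18.4% of probe sets: Prdx2 at 0.35, Gpx1 at 0.25 and Cat at 0.30, the last of which fell to 0.10 without that rat and was not called. Prdx2 and Gpx1 were at 0.22 and 0.29 without that rat and still called. Gsr was called on this level without rat 1 of reperfused-MCAO + tPA, rat 6 of permanent-MCAO or rat 2 or 4 of tPA without MCAO (0.35 to 0.79), and Gclc without rat 2 of tPA without MCAO (-0.71). Within groups it correlated with the red cell level at 0.896 over the 42 arrays, a description only, and with it as a covariate none of the 9 genes kept a slope on the red cell level past the threshold.

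**Figure D3:**
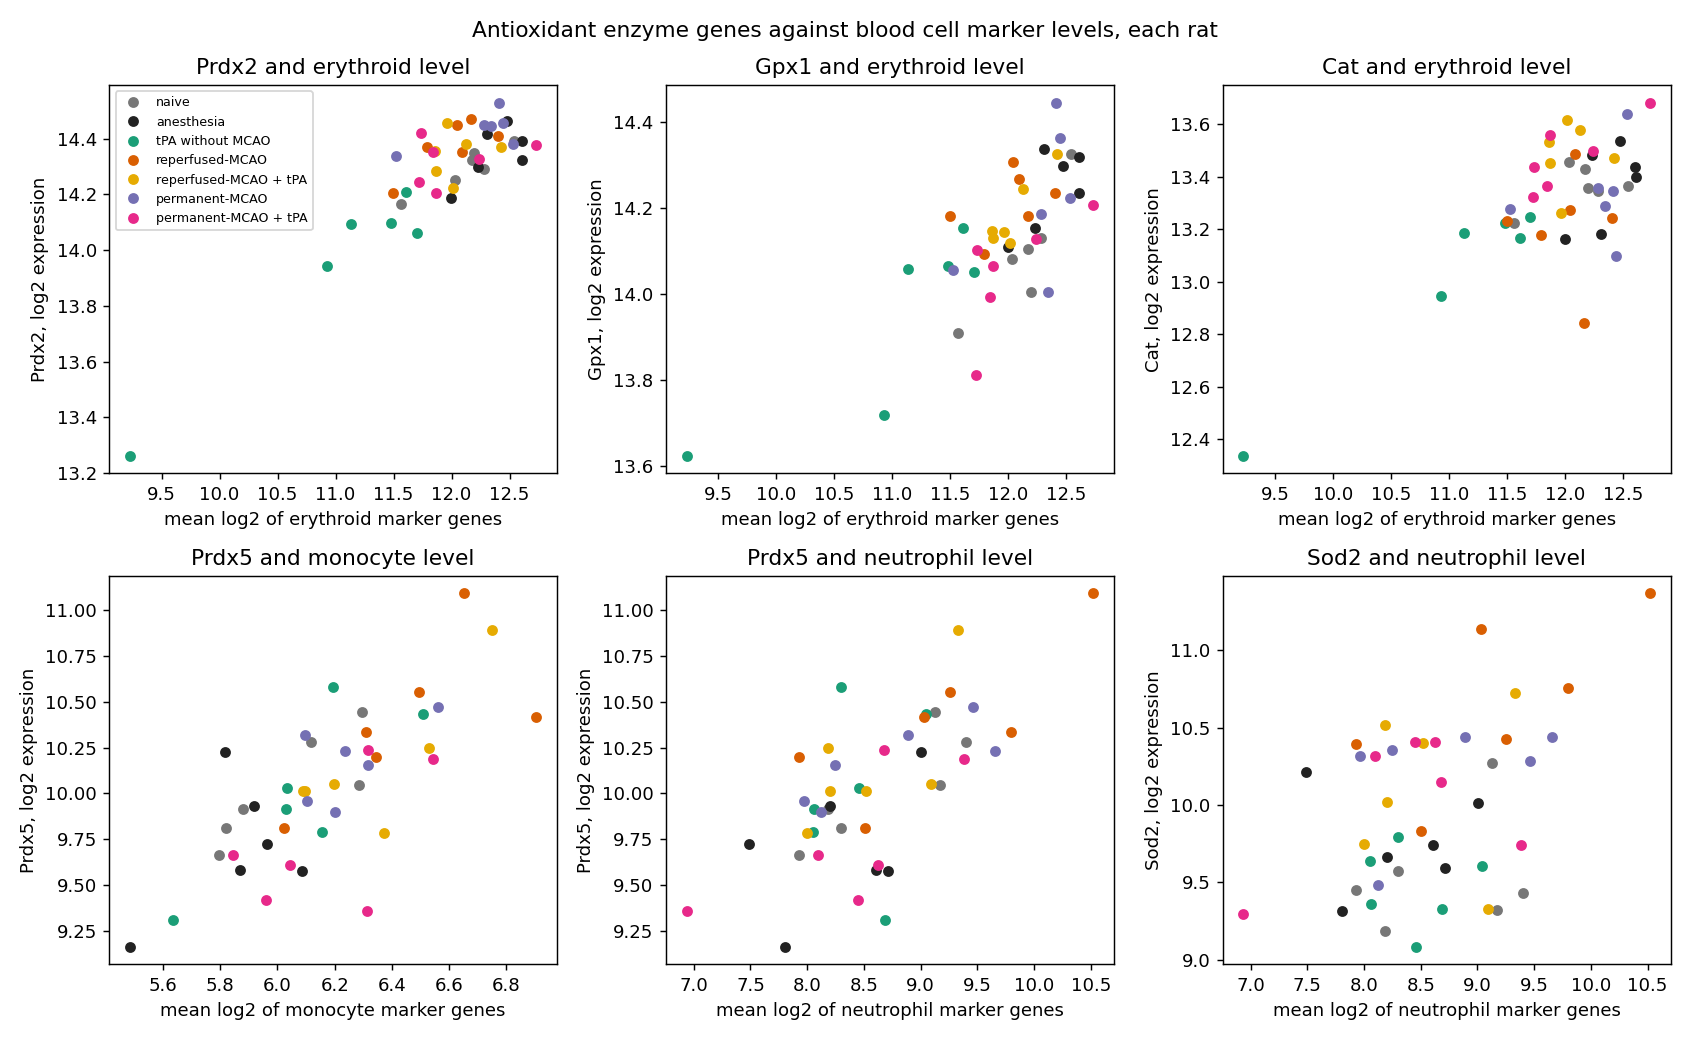
Each point is 1 rat, coloured by group, with the mean log2 of a marker list along the horizontal axis and the log2 expression of a gene along the vertical axis. Prdx2, Gpx1 and Cat are low where the red cell level is low, most of all in the rat at 9.23, and Prdx5 is high where monocyte and neutrophil levels are high.

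Prdx5 varied with the phagocyte markers. Its slope was 1.02 per log2 of monocyte level (adjusted p = 0.0016 in limma), the only call among the 9 genes, against 0.78% of probe sets. On the neutrophil level, led by the calprotectin genes S100a8 and S100a9, it was 0.34 (adjusted p = 0.00714 in limma), again the only call, against 0.973% of probe sets. Sod1 was also called on the neutrophil level when 1 of 4 rats was left out (rat 4 of reperfused-MCAO, rat 1 of permanent-MCAO + tPA, rat 1 of naive or rat 5 of tPA without MCAO), at 0.19 to 0.22. Sod2 had slopes of 0.58 on the monocyte level and 0.23 on the neutrophil level without passing.

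The calls on the lymphocyte levels in the fit of all rats were negative slopes. Uncalled slopes of the 9 genes went both ways. They ran from -0.36 (Sod2) to 0.39 (Gclc) on the T cell level and from -0.17 (Prdx5) to 0.11 (Sod1) on the B cell level. On the T cell level, 29.6% of probe sets and 3 of the 9 genes were called, Gsr (-0.50), Gpx1 (-0.22) and Prdx2 (-0.20). On the B cell level, 9.52% of probe sets and 2 genes were called, Sod2 (-0.40) and Gsr (-0.30). Sod2 lost its call without rat 2 of reperfused-MCAO + tPA or rat 3 of permanent-MCAO (-0.35 to -0.34), and Gsr lost its T cell call without rat 1 of permanent-MCAO + tPA (-0.43). Calls on the T cell level were gained by Cat without rat 5 of reperfused-MCAO + tPA or rat 4 of permanent-MCAO + tPA (-0.27 to -0.25) and by Gclc without rat 1 or 5 of reperfused-MCAO + tPA or rat 3 of permanent-MCAO + tPA (0.45 to 0.52). With the hybridization control level as a covariate no gene was called on the T cell level. No gene was called on the platelet level (3.38% of probe sets) or the NK and cytotoxic cell level (0.148%), although Sod2 was called on the platelet level without rat 1 of anesthesia, rat 1 or 2 of reperfused-MCAO or rat 1 of tPA without MCAO (0.45 to 0.64).

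**Figure D4:**
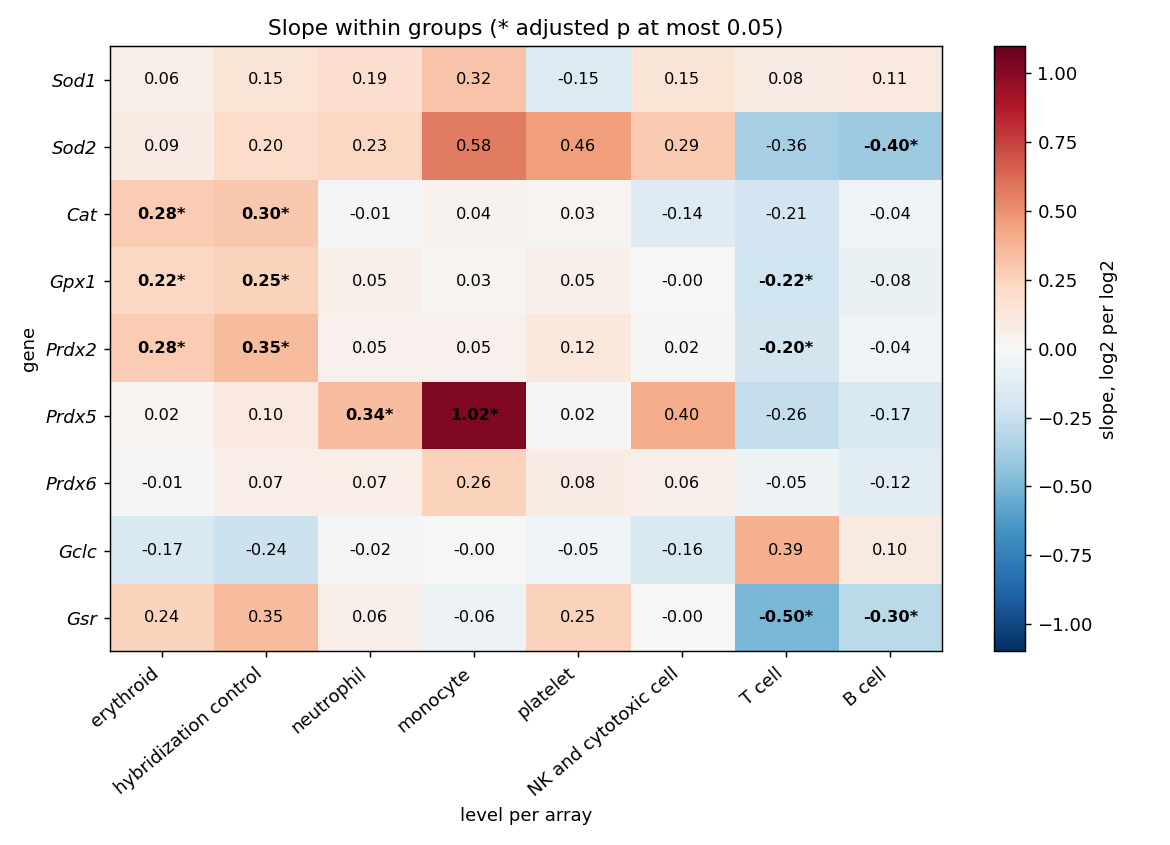
The slope of each gene on each level, in log2 per log2 within the 7 groups over 42 rats, is written in its cell, with a star where the adjusted p is at most 0.05. The red cell and hybridization control columns carry the same 3 genes, and Prdx5 alone passes for neutrophils and monocytes.

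The members also resembled each other and other genes to different degrees over the 42 arrays, which share groups and array-wide differences, so the correlations describe these arrays only. Within groups Gpx1 and Prdx2 correlated at 0.668, Cat and Prdx2 at 0.538, Cat and Gpx1 at 0.505, Sod2 and Prdx5 at 0.548 and Sod1 and Prdx5 at 0.463. Over all arrays the genes nearest to Prdx2 were Wdr45, Klf1 and Glul, at 0.945 to 0.936. Klf1, the master regulator of red cell genes, is itself in the red cell list. Nearest to Cat were Paip2, Bcas2 and Ube2r2 (0.84 to 0.817), to Gpx1 Slc22a4, Ypel5 and Rffl (0.838 to 0.81), and to Prdx5 Lamp2, Snx18 and Cd302 (0.862 to 0.835). Lamp2 is a lysosomal membrane protein. Sod2 lay nearest to Litaf, Skap2 and Ppp1r3b (0.796 to 0.786), Gclc to Rras2, Rbm25 and Tnfsf10 (0.753 to 0.673), Gsr to Mid1ip1, Septin8 and Wasf2 (0.725 to 0.641), and Sod1 to Lamtor4, Psmb4 and Cyba (0.671 to 0.648), the last a subunit of the phagocyte NADPH oxidase. Prdx6 resembled no gene closely, its nearest being Plcb4, Rab13 and Cox14 (0.527 to 0.5).

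The wider antioxidant system was followed through 50 further genes. After reperfused-MCAO 8 of the 50 were called higher and 2 lower (6% of all probe sets in either direction), with a median log2 difference of 0.04. Slc7a11, the cystine importer that feeds glutathione synthesis, was higher by 1.94 ± 0.366 (adjusted p = 0.0253 in limma), and Idh1, a cytosolic source of NADPH, by 0.47 ± 0.0900 (adjusted p = 0.0264). Msrb1, a methionine sulfoxide reductase, was higher by 0.90 ± 0.228 (adjusted p = 0.0745 in limma) and Txn1, thioredoxin itself, lower, at -0.27 ± 0.0683 (adjusted p = 0.0726). Of the 13 genes of glutathione synthesis and use 3 were higher and none lower, of the 7 that supply NADPH 2 were higher, of the 10 thioredoxin genes 2 were higher and 1 lower, of the 7 peroxidases 1 was lower, and of the 11 regulators 1 was higher. After permanent-MCAO 2 were called higher and none lower (2.78% of all probe sets), Slc7a11 at 1.58 ± 0.440 and Idh1 at 0.33 ± 0.0874, both short of adjusted significance (adjusted p = 0.244 and 0.204 in limma). Mgst1 (0.59 ± 0.193) and Txnrd1 (0.45 ± 0.157) came next and did not pass. None of the 50 differed past the thresholds in limma between the kinds of MCAO (0.709% of all probe sets), and 7 had an unadjusted p of at most 0.05, with the smallest for Glrx2 (-0.52 ± 0.173), Txn2 (-0.67 ± 0.248), Gclm (-0.23 ± 0.0848) and Pgd (0.46 ± 0.173).

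**Figure D5:**
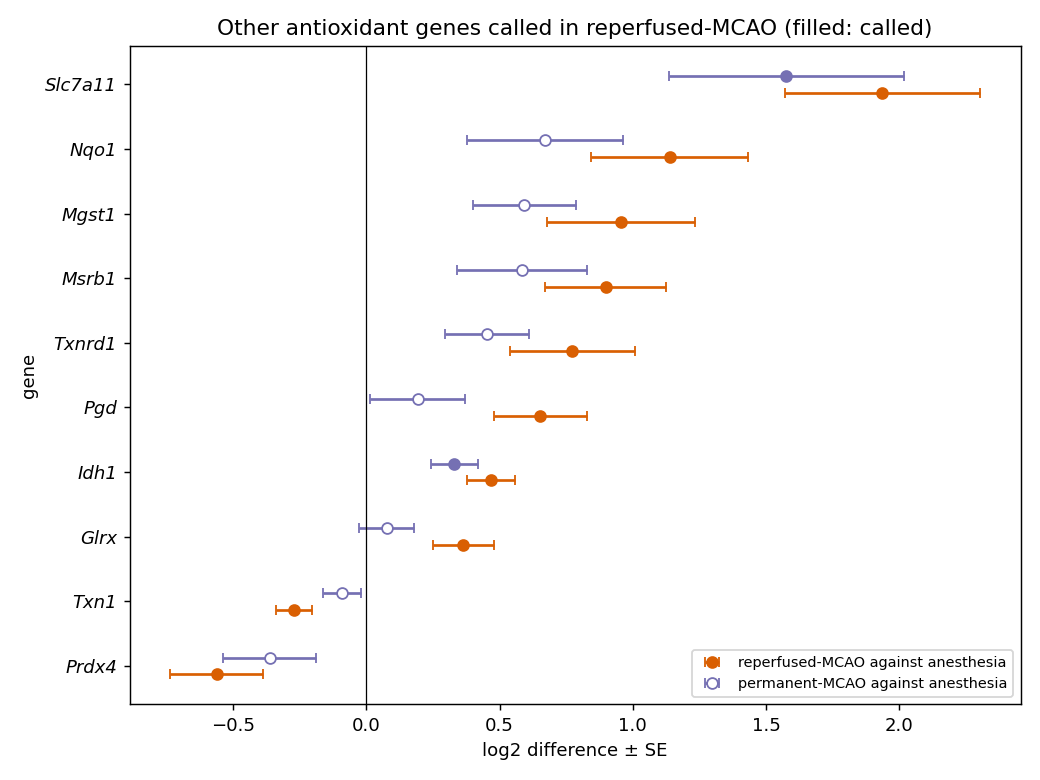
The 10 other antioxidant genes called after reperfused-MCAO are shown with their log2 difference from anesthesia and SE after reperfused-MCAO and after permanent-MCAO, filled where called. Slc7a11 has the highest values, 1.94 and 1.58, and the genes are shown because they were called, so their sizes are a description.

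With tPA in rats without MCAO, 8 of the 50 were called higher and 6 lower (13.7% of all probe sets), with a median of 0.11. Idh1 (0.54 ± 0.107) and Gstm1 (0.73 ± 0.144) rose with an adjusted p of 0.0143 in limma, Msrb3 rose by 0.47 (SE 0.0925, adjusted p = 0.0144), and Bach1, a repressor of antioxidant response elements, fell by 2.64 (SE 0.615, adjusted p = 0.0234). Red cell markers and hybridization controls were lower in this group, which includes rat 2. The values of the further genes here and in the fits of all rats were not recomputed without that rat or with the covariate. The part of these levels was not tested. In the fit of all rats the tPA effect was lower for 11 and higher for 2 (12% of all probe sets), with Gpx4, which protects membrane lipids, at -0.91 ± 0.194 (adjusted p = 0.0106 in limma), Bach1 at -1.45 ± 0.319 (adjusted p = 0.0118), Glrx5 at -0.69 ± 0.160 (adjusted p = 0.0142) and Txn1 at -0.27 ± 0.0673 (adjusted p = 0.0186). Stroke was accompanied by 8 higher and 5 lower (15.4% of all probe sets), with Slc7a11 at 1.31 ± 0.294 (adjusted p = 0.00468 in limma), Sesn1 at -0.68 ± 0.149 (adjusted p = 0.00385) and Msrb2 at -0.62 ± 0.183 (adjusted p = 0.0275). Park7 was at -0.24 ± 0.0619 (adjusted p = 0.0143 in limma), short of the fold threshold.

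The interaction was called for 19 of the 50, 9 positive and 10 negative, where 21% of all probe sets were called, led by Glrx5 (1.38 ± 0.320, adjusted p = 0.00796 in limma), Gclm, the regulatory partner of Gclc (1.32 ± 0.320, adjusted p = 0.0102), Bach1 (2.38 ± 0.638, adjusted p = 0.0172) and Gpx4 (1.35 ± 0.388, adjusted p = 0.0253). In reperfused-MCAO tPA gave 1 call (0.722% of all probe sets), Gclm higher by 0.27 ± 0.0805 (adjusted p = 0.542 in limma), ahead of Ggt1 (-1.70 ± 0.578), Ccs (-0.47 ± 0.202) and Sod3 (0.04 ± 0.0198), which did not pass. In permanent-MCAO tPA gave no call in limma (0.322% of all probe sets) and 1 gene with an unadjusted p of at most 0.05, Ggt1 (-0.82 ± 0.355), followed by Gpx4 (-0.62 ± 0.298), Txn1 (-0.23 ± 0.112) and Tkt (-0.32 ± 0.168). Anesthesia against naive gave 1 call (0.821% of all probe sets), Me1, a source of NADPH, higher by 0.51 ± 0.159 (adjusted p = 0.94 in limma), while Sesn3 (0.42 ± 0.163), Gstm1 (-0.42 ± 0.170) and Srxn1 (0.84 ± 0.380) did not pass. The difference between the tPA effects in the kinds of MCAO gave no call in limma (0.296% of all probe sets) and 3 genes with an unadjusted p of at most 0.05, Prdx4 (0.61 ± 0.233), Gclm (0.42 ± 0.180) and Gpx4 (0.75 ± 0.342), with Txn1 next (0.27 ± 0.133).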

How the data were processed

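Whole blood RNA of 42 rats, 6 in each of 7 groups, was amplified, labelled and hybridized by the authors to Affymetrix rat genome arrays. What the authors deposited is a table on the log2 scale, summarised per probe set by GC-RMA in Partek, and no scan was read here. The table holds 31099 rows. The 57 control probe sets were set aside, and the mean of 14 of them, the hybridization controls, was kept as a level per array. Of the 31042 probe sets tested, 20826 have 1 gene symbol, 436 several and 9780 none, and 13232 have a mean of at least log2 4. A gene with several probe sets is given by the one of highest mean. No probe set with several symbols names a gene. The precision is limited by the number of arrays.

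Groups were compared with limma 3.58.1 (R 4.3.3) over all tested probe sets, on the 12 rats of a comparison (called at p at most 0.01 and fold at least 1.2) or, for the tPA, stroke and interaction effects, on all 42 rats with tPA, any MCAO, their interaction and anesthesia (all groups except naive) as terms (p at most 0.05, same fold). The difference between the tPA effects was fitted on the 4 MCAO groups. These are the thresholds of the study's methods, with limma in place of its analysis of variance. Adjusted p values are Benjamini-Hochberg values over all tested probe sets, and counts after adjustment use 0.05 with no fold threshold. Exact p values come from all 924 divisions of 12 rats, two-sided. Slopes on marker levels were fitted with 1 mean per group and called at adjusted p at most 0.05. Nothing in the sources says which samples were processed together.

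The 9 genes and the shared Prdx1 probe set are given in every comparison, by value or by range. Of the other antioxidant genes the 4 with the smallest p in a comparison are named. For each member the 3 genes of highest correlation are named among genes with a mean of at least log2 4. A further gene of that list is not reported here. Members and lists were chosen with earlier results of these data known. The marker lists had 7 of 12 red cell, 9 of 10 neutrophil, 8 of 8 monocyte, 9 of 9 T cell, 4 of 7 B cell, 6 of 8 platelet and 7 of 7 NK and cytotoxic cell genes measured. Fits were tested on simulated data. Alternatives were quantile scaling, median centring, removal of dim probe sets, array weights, an intensity trend, the methods' test without shared variance, the hybridization control level as a covariate, a replicate block, a fold of 1.5, adjusted p, other groupings and codings, the mean of all probe sets of a gene, and omission of each rat or group. Replicate numbers 1 to 6 recur in every group without a stated meaning. Of 126 pairs of samples with the same number, 39 had deviations from their group means that correlated above 0.1 (median -0.0395). Pairs with different numbers were not examined, so this check cannot exclude a pairing. The main fits do not use the numbers. Plots used matplotlib 3.10.9 under Python 3.11.15, with pandas 2.3.3 and numpy 2.4.6.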

Additional observations from a re-analysis of the deposited data

Results flagged for a closer look

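In groups of 6 rats, a highest or lowest rat was marked as far from the rest by the share of the group's range that lies between it and its neighbour, at a level where chance marks about 5% of groups. Of 63 groups tested (9 genes in 7 groups) 6 were marked. In Sod2 the share was 0.837 for the lowest permanent-MCAO rat, at 9.48 against 10.3 for its neighbour, and 0.641 for the highest naive rat. In Cat and Prdx2 it was 0.668 and 0.717 for the lowest rat given tPA without MCAO, the same array in both, whose red cell and hybridization control levels were also the lowest of its group. In Gsr, a dim probe set, it was 0.678 for the highest reperfused-MCAO rat and 0.77 for the highest naive rat.

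The interaction of tPA and stroke was called in all 42 rats with limma for Sod1 (-0.536), Cat (0.559), Prdx2 (0.331), Prdx5 (-0.639) and Gclc (0.653). Of all probe sets, 21% were called. Adjusted p values were at most 0.05 for Sod1, Cat and Prdx2 among them. With the hybridization control level as a covariate, Prdx2 (-0.03) and Cat (0.24) were not called. Prdx2 was also uncalled without rat 2 of tPA without MCAO (0.19), and Prdx5 with that group coded as not anesthetised (-0.31).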

How the results depend on the processing

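Of 7469 member values recomputed under the alternatives, 7226 kept their direction and side of the threshold or were uncalled in both, 162 lost a call, 80 gained one and 1 reversed: the interaction of Prdx2, called at 0.33, was -0.032 with the hybridization control level as a covariate. The causes were not tested. Counts of members called moved by over 1.5 times as follows. For tPA without MCAO against anesthesia (1 called) the count was 0 under quantile scaling, without dim probe sets, with array weights, by the methods' test, with the hybridization control covariate, with a fold of 1.5 and by adjusted p, 3 in one fit of all groups and 2 with naive and anesthesia pooled. For reperfused-MCAO (3 called) it was 0 by adjusted p. For permanent-MCAO (2 called) it was 1 without dim probe sets, with array weights, with a fold of 1.5 and by the mean of all probe sets of a gene, 4 with the covariate and 0 by adjusted p. For anesthesia against naive (0 called) it was 1 with the covariate. For tPA in permanent-MCAO (2 called) it was 1 under quantile scaling, median centring, without dim probe sets, with array weights, with an intensity trend, with a fold of 1.5 and by the mean of probe sets, and 0 by the methods' test, with the covariate and by adjusted p.

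In the fit of all rats, the tPA effect (1 called) had 2 under median centring and by adjusted p, 0 with the covariate, with a fold of 1.5 and with tPA without MCAO coded as not anesthetised, and 3 in the 4 MCAO groups alone. The stroke effect (2 called) had 4 under median centring and under the other coding, and 1 with a fold of 1.5 and by the mean of probe sets. The interaction (5 called) had 3 with array weights, with the covariate and by adjusted p, and 2 with a fold of 1.5. Slopes on the B cell level (2 called) had 1 without dim probe sets and 1 without the anesthesia, reperfused-MCAO, reperfused-MCAO + tPA, naive or tPA without MCAO group, and 0 without permanent-MCAO. Slopes on the red cell and T cell levels (3 each) had 0 with the covariate, the neutrophil slope (1) had 0 without reperfused-MCAO, the platelet slope (0) had 1 without dim probe sets, with array weights and without reperfused-MCAO, and the hybridization control slope (3) had 1 under quantile scaling.

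With the replicate block, whose numbers have no stated meaning, the count was 0 for tPA without MCAO, 1 for reperfused-MCAO and 0 for permanent-MCAO. It was 1 for tPA in permanent-MCAO, 1 for the B cell slope, and 0 for the monocyte and neutrophil slopes. Elsewhere it moved by 1.5 times or less.

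On leaving out each rat the count ran from 0 to 1 for tPA without MCAO, 0 to 3 for reperfused-MCAO, 0 to 3 for permanent-MCAO, 0 to 0 for anesthesia against naive, for reperfused against permanent-MCAO and for the difference between tPA effects, 0 to 1 for tPA in reperfused-MCAO, 0 to 2 for tPA in permanent-MCAO, 0 to 2 for the tPA effect, 2 to 4 for the stroke effect and 4 to 5 for the interaction. For slopes it ran from 1 to 2 for B cells, 3 to 4 for red cells, 1 to 1 for monocytes, 1 to 2 for neutrophils, 0 to 0 for NK and cytotoxic cells, 0 to 1 for platelets, 2 to 5 for T cells and 3 to 4 for hybridization controls. Gsr is dim, so its small differences carry little information.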
